A study of Mus musculus with 2 samples.

Results

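Signalling by bone morphogenetic proteins (BMPs) and by transforming growth factor beta (TGF-beta) was described through 43 genes in the sigmoid colon (the distal curve of the large bowel) of a single mouse. The genes are the listed ligands, matrix handlers, secreted antagonists, receptors, Smads and Id targets, chosen by symbol and not by level, and 43 of 43 were matched among the 43346 Ensembl genes in the files. The animal was a female of the inbred C57BL/6J strain, adult, 10 weeks old, with no treatment or altered allele named in the labels. Polyadenylated RNA of that tissue was sequenced in 2 technical libraries, numbered as technical replicates in the labels. Library 2, the later one, held 20681575 expected counts and library 1 held 25843064. There was 1 group, no second condition and no second animal, so the comparison is of library 2 over library 1, and each SD (n = 2 technical libraries) covers how the libraries differed, not how mice differ.

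BMPs and TGF-betas are secreted dimers that bring together type II and type I serine/threonine kinase receptors. The type I receptor phosphorylates receptor-activated Smads, Smad1, Smad5 and Smad9 for BMPs and Smad2 and Smad3 for TGF-beta and activin, which enter the nucleus with Smad4. In the intestine, BMP signalling is known to increase toward the surface end of the crypt, and antagonists such as gremlin 1 from stromal cells around the crypt base hold it down near the stem cells.

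The libraries were not alike in composition, which bears on every value below. Mitochondrially encoded genes took 5.59% of the expected counts of library 2 and 24.1% of those of library 1. Nuclear protein-coding genes held 75.3% of all TPM (the authors' length-corrected transcript level) in library 2 and 31.3% in library 1, so a deposited TPM ranks genes within a library, whereas a ratio between libraries is given on expected counts scaled by TMM library sizes. A gene was compared where its expected counts averaged 10 or more, and counted as higher or lower at 2-fold or more with a 95% exact counting interval that left out equality. That interval and each standard error (SE) cover counting error only. Summed TPM over marker lists was 5223 in library 2 and 909.5 in library 1 for 6 epithelial genes, 4791 and 327 for 6 smooth muscle genes, 811 and 623 for 6 fibroblast genes, 61.4 and 13.5 for 5 blood endothelial genes, and 120.2 and 27.0 for 5 macrophage genes, again with library 2 first. On the scaled ratio, 6 of 6 smooth muscle, 3 of 6 epithelial, 3 of 5 endothelial and 3 of 5 macrophage markers were higher in library 2, and 1 macrophage marker was lower. Of all genes compared, 37% were higher and 28.2% lower. Of the fibroblast markers 2 were higher and 2 lower, and on TPM rescaled to nuclear protein-coding genes they summed to 1077 in library 2 and 1988 in library 1. On that scale the epithelial markers summed to 6932 in library 2 and 2903 in library 1. Krt8 alone held 3891 of the former and 194 of the latter, whereas Epcam, the next in mean TPM, had a log2 ratio of -0.08 on scaled counts. With a trend on GC content taken off the ratio, 5 smooth muscle, 0 epithelial, 0 fibroblast, 2 endothelial and 2 macrophage markers were higher. Lower then were 2 epithelial and 2 fibroblast markers, beside 13.3% higher and 11.7% lower of all genes. Of 4 skeletal muscle markers 2, Ckm and Acta1, passed the count minimum, through library 2, and the rest fell under it. Ckm had 278 counts in library 2 and 1 in library 1, and Acta1 had 275 in library 2 and 0 in library 1. Against a floor of 3 counts per library Acta1 was 68.1-fold higher in library 2, and the lower end of its counting interval was 55.0-fold. With so few counts in library 1, both genes had to differ once they passed the minimum. With the GC trend off, the log2 ratio of Ckm went from 7.11 to 2.04 and that of Acta1 from 8.68 to 5.22. The part of these cell types in the results was not tested. Of 4 squamous markers none passed the count minimum, and Krt4 was at 0 counts in both libraries. In bulk tissue, fewer cells of a type and less RNA per cell cannot be told apart.

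Paralogues within the pathway came out on opposite sides of the comparison, so the sequences that tell them apart are shown first. The lines give a stretch of 120 coding bases from the middle of the Id1, Acvr2b and Tgfb1 leading transcripts, each followed by the ungapped stretch of the paralogue that shares the most bases with it. They are GENCODE M21 transcripts on GRCm38, 5′ to 3′, and capitals mark G and C.
Id1: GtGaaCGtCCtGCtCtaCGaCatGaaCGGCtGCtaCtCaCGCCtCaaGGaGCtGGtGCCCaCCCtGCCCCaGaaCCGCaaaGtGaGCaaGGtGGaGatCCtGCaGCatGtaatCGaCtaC
Id3: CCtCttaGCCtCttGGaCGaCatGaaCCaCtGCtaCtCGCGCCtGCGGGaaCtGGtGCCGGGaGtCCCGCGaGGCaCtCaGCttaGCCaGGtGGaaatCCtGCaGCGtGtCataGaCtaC
Id2: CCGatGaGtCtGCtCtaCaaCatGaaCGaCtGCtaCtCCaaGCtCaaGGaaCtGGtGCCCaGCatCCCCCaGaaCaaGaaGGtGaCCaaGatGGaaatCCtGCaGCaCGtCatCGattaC
Id4: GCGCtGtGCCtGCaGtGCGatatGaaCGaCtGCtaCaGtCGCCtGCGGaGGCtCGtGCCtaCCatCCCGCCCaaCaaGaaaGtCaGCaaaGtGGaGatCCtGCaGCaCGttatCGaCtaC
Acvr2b: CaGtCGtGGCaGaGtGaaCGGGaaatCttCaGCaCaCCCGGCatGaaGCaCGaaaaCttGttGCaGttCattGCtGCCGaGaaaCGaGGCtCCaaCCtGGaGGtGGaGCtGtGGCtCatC
Acvr2a: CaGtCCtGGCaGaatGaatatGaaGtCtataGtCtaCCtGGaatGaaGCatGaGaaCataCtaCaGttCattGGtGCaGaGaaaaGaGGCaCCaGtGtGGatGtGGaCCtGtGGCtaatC
Tgfb1: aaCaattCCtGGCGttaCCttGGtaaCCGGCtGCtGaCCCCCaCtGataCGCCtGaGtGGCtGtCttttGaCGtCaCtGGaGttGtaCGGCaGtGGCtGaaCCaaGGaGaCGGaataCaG
Tgfb2: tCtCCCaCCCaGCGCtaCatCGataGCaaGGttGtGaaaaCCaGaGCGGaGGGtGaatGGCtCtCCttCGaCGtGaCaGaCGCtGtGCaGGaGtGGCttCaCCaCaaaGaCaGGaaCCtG

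Id2 shared 93 of the 120 bases with Id1, Id4 shared 87 and Id3 shared 78. The longest run that the whole leading transcript of Id1 shared with another Id transcript was 17 bases, with Id4. Acvr2a matched Acvr2b at 91 of 120 bases with a longest common run of 14 bases over the whole transcripts, and Tgfb2 matched Tgfb1 at 68 of 120 bases with a longest run of 12. Paralogues were therefore alike over short stretches and distinct over longer ones. In these stretches G and C made up 55.0% of Acvr2b and 45% of Acvr2a, 54.2% of Tgfb1 and 55.8% of Tgfb2, and 57.5% of Id1, 60.0% of Id3, 51.7% of Id2 and 57.5% of Id4, so that Tgfb1 and Tgfb2, and likewise Id1 and Id4, were close there. Over the whole leading transcripts they made up 64.0% of Acvr2b and 39.9% of Acvr2a, 62.5% of Tgfb1 and 46.9% of Tgfb2, and 55.2% of Id1, 55.6% of Id3, 42.4% of Id2 and 42.6% of Id4. The Acvr2b and Id4 transcripts have another length in GENCODE M4, which the files use, and the coding part of Id4 alone was 71.4% G and C.

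Most of the genes were detected. At least 1 TPM was reached by 39 of the 43 in library 2, by 31 in library 1 and by 30 in both, while Inhba, Inhbb and Bmpr1b stayed below 1 TPM in both. At least 10 TPM was reached by 27 in library 2, 18 in library 1 and 16 in both. The highest level belonged to Id1 in library 2, at 212 TPM, and to Bmpr1a in library 1, at 56.9 TPM. Of the 10 highest genes of each library, 6 were shared, and the rank correlation of TPM over the 43 genes was 0.74 (Spearman, across genes of the same 2 libraries, given as a description).

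**Figure D1:**
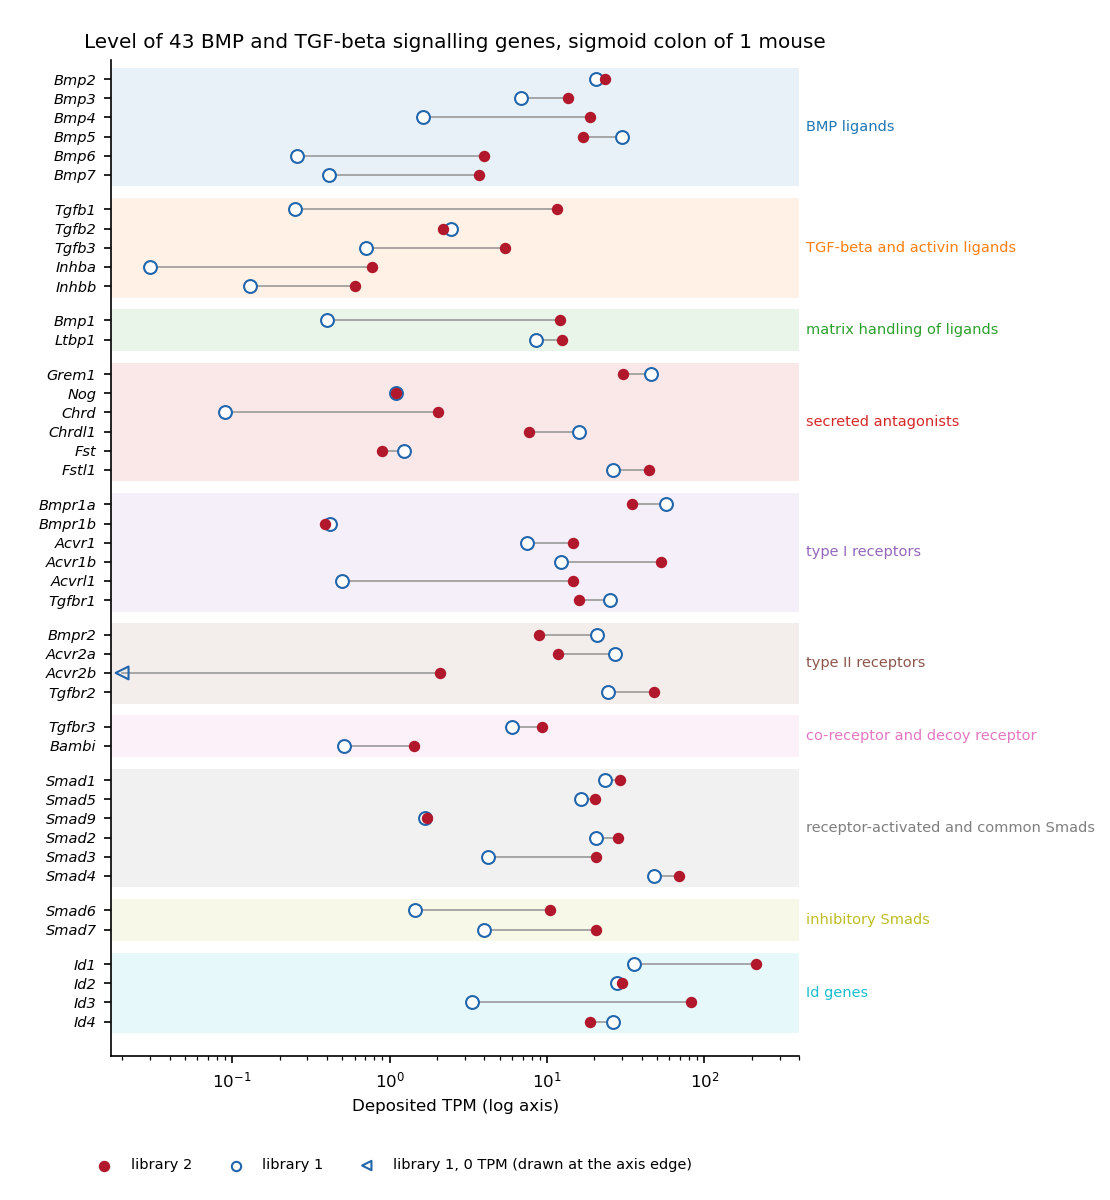
Deposited TPM on a log axis for the 43 genes, grouped by role, with library 2 as filled points and library 1 as open circles, joined by a line for each gene. Most genes lie between 1 and 100 TPM in both libraries, Id1 reaches 212 TPM in library 2, and Acvr2b, at 0 TPM in library 1, is drawn as a triangle at the edge of the axis.

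Of the 42 genes compared, 13 were at least 2-fold higher in library 2, 15 were at least 2-fold lower and 14 were neither. The background over all 15705 genes compared was 37% higher and 28.2% lower, against 31.0% and 35.7% of the pathway genes. Their median log2 ratio was -0.19, and that of all genes compared was 0.12. Acvr2b and Chrd had fewer than 10 counts in library 1 and passed the count minimum through library 2. With 0 counts in library 1 Acvr2b had to differ, whereas for Chrd, with 8, the minimum did not force a 2-fold difference. Several genes lay close to the 2-fold limit, with Smad4 at a log2 ratio of -1.02 and Id2 at -1.05 just inside it, and Bmp2 at -0.99, Inhbb at 0.97, Acvr1b at 0.94 and Smad7 at 0.92 just outside.

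The ratio followed base composition. Its rank correlation with the GC content of the transcripts was 0.84 over the 42 genes and 0.90 over all genes compared (Spearman, a description across genes that share both libraries). GC content ran from 53.0 to 62.0% in the 13 genes that were higher in library 2, with a median of 57.0%, and from 39.9 to 56.2% in the 15 that were lower, with a median of 42.4%. For 9 genes no transcript kept its length between the 2 annotations, and without them the correlation was 0.86 over 33 genes, a check chosen after seeing the data. Taking a lowess trend on GC content off the ratio left 2 genes higher and 13 lower, against a background of 13.3% higher and 11.7% lower over 15658 genes. None of the 13 genes higher before remained higher, and 3 of the 15 lower ones, Nog, Fst and Smad4, remained lower. After this step the median log2 ratio was -0.37 for the pathway genes and -0.01 for all genes. On the ratio of deposited TPM, 17 genes were higher and 3 lower, against a background of 54.2% and 5.07%, and the median of all genes moved to 1.24. On TPM rescaled to nuclear protein-coding genes the numbers were 14 and 15, against a background of 35.2% and 30.7%. Why GC content and the ratio moved together was not tested.

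**Figure D2:**
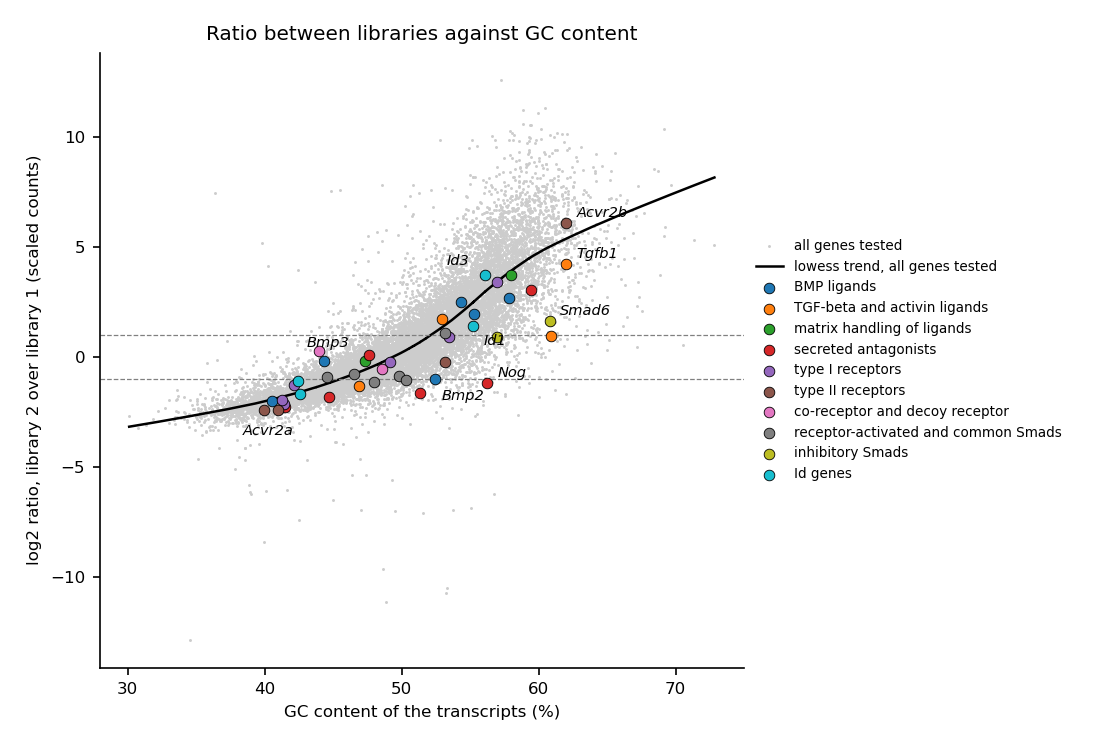
The log2 ratio of scaled counts, library 2 over library 1, against the GC content of each gene's transcripts in percent, with all genes compared in grey, the pathway genes coloured by role, the lowess trend over all genes as a line and the 2-fold limits dashed. Most coloured points climb with the trend, Acvr2b and Tgfb1 lie at its GC-rich end and Acvr2a at its GC-poor end, and Nog and Smad6 lie below it.

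Among the BMP ligands, Bmp2 and Bmp5 were abundant in both libraries, whereas Bmp4, Bmp6 and Bmp7 were much lower in library 1. The 6 genes summed to 80.5 TPM in library 2 and 59.6 TPM in library 1, a mean of 70.1 ± 14.7 TPM (SD, n = 2), and rescaled to nuclear protein-coding genes to 107 TPM in library 2 and 190.3 TPM in library 1. Bmp2 and Bmp4, a closely related pair of secreted ligands, lie at chr2:133552159-133562885 and chr14:46383520-46390669 (GRCm38). Bmp2 had 23.2 TPM in library 2 and 20.5 TPM in library 1. Bmp4 had 18.9 TPM in library 2 and 1.64 TPM in library 1. Bmp2 thus held 55.2% of the pair's TPM in library 2 and 92.6% in library 1. On scaled counts Bmp4 was 5.72-fold higher in library 2 (log2 ratio 2.52, SE 0.21), and 0.49 remained after the GC trend was taken off. Bmp2 was 1.98-fold lower in library 2 (log2 ratio -0.99, SE 0.06), and its log2 ratio was -2.15 with the GC trend off.

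Bmp5, Bmp6 and Bmp7 form another subfamily of ligands. Bmp5 had 17.0 TPM in library 2 and 29.98 TPM in library 1, and on scaled counts it was 3.96-fold lower in library 2, with a log2 ratio of -0.07 once the GC trend was off. Bmp6 had 3.96 TPM in library 2 and 0.26 TPM in library 1. Bmp7 had 3.69 TPM in library 2 and 0.41 TPM in library 1. Both were higher in library 2 on scaled counts, with log2 ratios of 2.71 and 2.00, and both turned negative with the GC trend off, at -1.16 and -0.55. Bmp6 overlaps Txndc5 on the opposite strand, which had 215 TPM in library 2 and 21.5 TPM in library 1. Whether strand was used in counting is unknown here, and without it the reads of such a pair cannot be told apart. Bmp3, a family member known to act against other BMPs in bone, had 13.7 TPM in library 2 and 6.87 TPM in library 1, a log2 ratio of -0.18 that became 1.07 with the GC trend off.

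The TGF-beta and activin ligands were the lowest group of ligands, at 20.5 TPM in library 2 and 3.56 TPM in library 1 in all. On TPM rescaled to nuclear protein-coding genes they summed to 27.2 TPM in library 2 and 11.4 TPM in library 1. The order of the 3 TGF-betas was not the same in the libraries. Tgfb1, at chr7:25687002-25705077, had 11.5 TPM in library 2 and 0.25 TPM in library 1, from 315 and 12 expected counts. Tgfb2 had 2.20 TPM in library 2 and 2.44 TPM in library 1. Tgfb3 had 5.43 TPM in library 2 and 0.71 TPM in library 1. Tgfb1 led in library 2 with 60.2% of the TGF-beta TPM, and Tgfb2 led in library 1 with 71.8%. Tgfb1 was 18.7-fold higher in library 2 on scaled counts (log2 ratio 4.23, SE 0.42), and its ratio with the GC trend off was -1.16. Tgfb2 was 2.49-fold lower and Tgfb3, which overlaps Ttll5 on the opposite strand, was 3.35-fold higher. Inhba and Inhbb encode the beta subunits of activins and inhibins. Inhbb had 0.60 TPM in library 2 and 0.13 TPM in library 1. Inhba had 15 counts in library 2 and 1 in library 1, fell under the count minimum, and had a log2 ratio of 2.94 (95% counting interval 0.78 to 8.87).

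Bmp1 is not a BMP but a protease that cleaves procollagen and chordin, and Ltbp1 binds latent TGF-beta in the matrix. Bmp1 had 12.0 TPM in library 2 and 0.40 TPM in library 1, a log2 ratio of 3.74 (SE 0.25) that was -0.20 with the GC trend off. Ltbp1 had 12.4 TPM in library 2 and 8.46 TPM in library 1, with a log2 ratio of -0.18.

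Secreted antagonists reached 86.3 TPM in library 2 and 90.5 TPM in library 1, a mean of 88.4 ± 2.96 TPM (SD, n = 2), and Grem1 led the BMP antagonists in both. Rescaled to nuclear protein-coding genes, the sums were 115 TPM in library 2 and 289 TPM in library 1, and 4 of the 6 genes were lower in library 2 on scaled counts, so the near-equal sums belong to the deposited scale. Grem1, which encodes gremlin 1 at chr2:113746164-113758646, had 30.2 TPM in library 2 and 46.0 TPM in library 1. Together with Nog, Chrd and Chrdl1 it can be read as a share: Grem1 held 73.6% of the TPM of these 4 genes in library 2 and 72.8% in library 1. Chrdl1, for chordin-like 1, had 7.69 TPM in library 2 and 16.0 TPM in library 1. Noggin (Nog) was near the detection level, at 1.10 TPM in each library. Its log2 ratio on scaled counts was -1.15 (SE 0.37), against 0.00 on deposited TPM and -4.22 with the GC trend off. Chordin (Chrd) had 2.04 TPM in library 2 and 0.09 TPM in library 1, with 94 and 8 counts, and overlaps Thpo on the opposite strand. Follistatin (Fst), which binds activins, had 0.90 TPM in library 2 and 1.24 TPM in library 1. Fstl1, a follistatin-like secreted protein, was abundant, at 44.4 TPM in library 2 and 26.1 TPM in library 1, and its log2 ratio was 0.10.

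Summed BMP ligands (Bmp2, Bmp4, Bmp5, Bmp6 and Bmp7) over summed antagonists (Grem1, Nog, Chrd and Chrdl1) gave a quotient of 1.63 in library 2, from 66.8 and 41.0 TPM, and of 0.84 in library 1, from 52.8 and 63.1 TPM. On the log2 scale these were 0.70 and -0.26, with a mean of 0.22 ± 0.68 (SD, n = 2). With these lists the more abundant side was thus not the same in the libraries. The mean was -0.57 with Fst and Fstl1 counted as antagonists, 0.44 with Bmp3 among the ligands and -0.07 on expected counts, so its sign depends on these choices. With Fst and Fstl1 the antagonists, at 86.3 TPM in library 2 and 90.5 TPM in library 1, outweighed the ligands in both libraries.

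Type I receptors summed to 133 TPM in library 2 and 103 TPM in library 1, a mean of 118 ± 21.6 TPM (SD, n = 2), and rescaled to nuclear protein-coding genes to 177 TPM in library 2 and 329 TPM in library 1. Bmpr1a, the BMP type I receptor at chr14:34410734-34503341, had 34.5 TPM in library 2 and 56.9 TPM in library 1. Its paralogue Bmpr1b had 0.39 TPM in library 2 and 0.42 TPM in library 1, so the receptor pair was almost wholly Bmpr1a in both libraries. Acvr1b, the activin type I receptor, had 53.3 TPM in library 2 and 12.4 TPM in library 1. Acvr1, which serves BMPs, had 14.6 TPM in library 2 and 7.5 TPM in library 1. Tgfbr1, the TGF-beta type I receptor, had 16.0 TPM in library 2 and 25.3 TPM in library 1. Acvrl1, known as a receptor of blood endothelium, had 14.7 TPM in library 2 and 0.50 TPM in library 1. On scaled counts Acvrl1 was 10.8-fold higher in library 2, and Bmpr1a, Tgfbr1 and Bmpr1b were 4.37-fold, 3.78-fold and 2.40-fold lower. With the GC trend off none of the 6 type I receptors reached 2-fold, and Acvrl1 was at -0.01, Bmpr1b at 0.39.

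Type II receptors summed to 70.6 TPM in library 2 and 72.4 TPM in library 1, a mean of 71.5 ± 1.30 TPM (SD, n = 2). Rescaled to nuclear protein-coding genes, the sums were 93.7 TPM in library 2 and 231 TPM in library 1, so their nearness depends on the scale. Tgfbr2, the TGF-beta type II receptor, had 47.9 TPM in library 2 and 24.4 TPM in library 1. Bmpr2, the BMP type II receptor, had 8.87 TPM in library 2 and 20.8 TPM in library 1. Acvr2a, an activin receptor that also serves BMPs, lies at chr2:48814109-48903269 and had 11.7 TPM in library 2 and 27.2 TPM in library 1. Tgfbr2 was therefore the highest type II receptor in library 2, and Acvr2a, Tgfbr2 and Bmpr2 lay close together in library 1. Acvr2b, at chr9:119402118-119434995, had 46 counts in library 2, or 2.09 TPM, and 0 counts in library 1. Set against a floor of 3 counts per library, Acvr2b was 11.4-fold higher in library 2, and the lower end of its counting interval was 8.89-fold. With the GC trend off the log2 ratio of Acvr2b, which depends on the prior count, was 0.71. Bmpr2 was 5.28-fold lower and Acvr2a 5.25-fold lower, with log2 ratios of -0.56 and -0.39 once the GC trend was off. Tgfbr2 had a log2 ratio of -0.19 on scaled counts and of -1.64 with the GC trend off. Acvr2a overlaps Orc4 on the opposite strand, which had 29.6 TPM in library 2 and 91.8 TPM in library 1. Of the accessory receptors, the co-receptor betaglycan (Tgfbr3) had 9.32 TPM in library 2 and 6.01 TPM in library 1, and the decoy receptor Bambi had 1.43 TPM in library 2 and 0.51 TPM in library 1.

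On deposited TPM the BMP-responsive Smads kept nearly the same proportions in both libraries. Smad1 held 57.2% of the TPM of the BMP-responsive Smads in library 2 and 56.6% in library 1, Smad5 held 39.4% and 39.3%, and Smad9 3.41% and 4.06%. Their log2 ratios on scaled counts were -0.84 for Smad1, -0.87 for Smad5 and -1.13 for Smad9, and the ratio of deposited TPM was 0.04 for Smad9. With the GC trend off the log2 ratios were -1.01 for Smad1, 0.31 for Smad5 and -0.74 for Smad9. The steady proportions therefore belong to the values before that step. Smad2, which carries TGF-beta and activin signals, had 28.4 TPM in library 2 and 20.4 TPM in library 1. Smad3, its partner in that branch, had 20.6 TPM in library 2 and 4.20 TPM in library 1. Smad3 thus held 42.0% of the pair's TPM in library 2 and 17.1% in library 1, with a log2 ratio of 1.12 (SE 0.08) that was -0.34 with the GC trend off. Smad4, the common partner of both branches, was the highest Smad, at 68.7 TPM in library 2 and 47.7 TPM in library 1. On scaled counts Smad4 was 2.02-fold lower in library 2, while the log2 ratio of deposited TPM was 0.53.

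Smad6 and Smad7 inhibit the pathway and are known to be induced by it. Smad6 had 10.5 TPM in library 2 and 1.46 TPM in library 1, and Smad7 had 20.6 TPM in library 2 and 4.0 TPM in library 1. Smad7 was the more abundant in each library, with 66.3% of the pair's TPM in library 2 and 73.3% in library 1. Smad6 was 3.16-fold higher in library 2 on scaled counts. Both genes lay below the GC trend, with log2 ratios of -3.38 for Smad6 and -2.53 for Smad7 once it was taken off.

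The Id genes encode helix-loop-helix proteins without a DNA-binding region and are known targets of BMP Smads. They were the most abundant group in library 2, at 343 TPM, and summed to 93.2 TPM in library 1, a mean of 218 ± 177 TPM (SD, n = 2). Rescaled to nuclear protein-coding genes, the sums were 456 TPM in library 2 and 297 TPM in library 1. Id1, at chr2:152736251-152737410, had 212 TPM in library 2 and 35.9 TPM in library 1, from 2360 and 647 expected counts. Id3, at chr4:136143497-136145755, had 82.2 TPM in library 2 and 3.34 TPM in library 1, from 1207 and 67 expected counts. Both GC-rich members stood higher in library 2, and they made up 61.9% and 23.9% of the Id TPM there, against 38.5% and 3.58% in library 1. Id2 had 29.9 TPM in library 2 and 27.8 TPM in library 1. Id4 had 18.8 TPM in library 2 and 26.2 TPM in library 1. Id1 was therefore the leading Id gene in both libraries, while the order of the others was Id3, Id2, Id4 in library 2 and Id2, Id4, Id3 in library 1. On scaled counts Id3 was 13.3-fold and Id1 2.71-fold higher in library 2, and Id4 was 3.12-fold and Id2 2.07-fold lower. With the GC trend off the log2 ratios were 0.76 for Id3, -1.07 for Id1, -0.07 for Id4 and 0.55 for Id2, and with a trend on transcript length taken off instead Id1 was at -0.07.

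**Figure D3:**
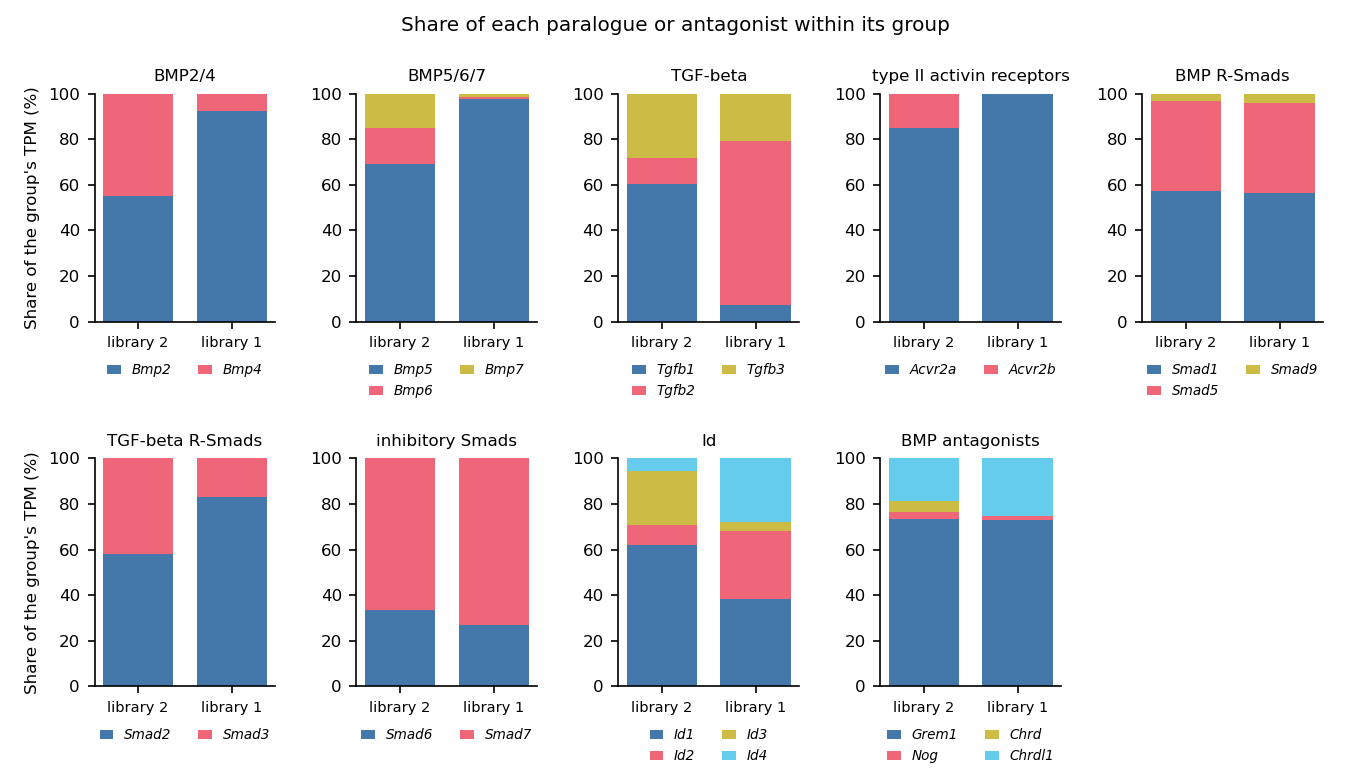
Share of each gene in the summed TPM of its subfamily, in percent, with library 2 as the left bar and library 1 as the right bar of each panel. The BMP-responsive Smads keep nearly the same shares (Smad1 57.2% in library 2 and 56.6% in library 1), as does Grem1 (73.6% in library 2 and 72.8% in library 1), whereas Bmp4, Tgfb1, Acvr2b, Smad3, Chrd and Id3 take a larger share in library 2.

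**Figure D4:**
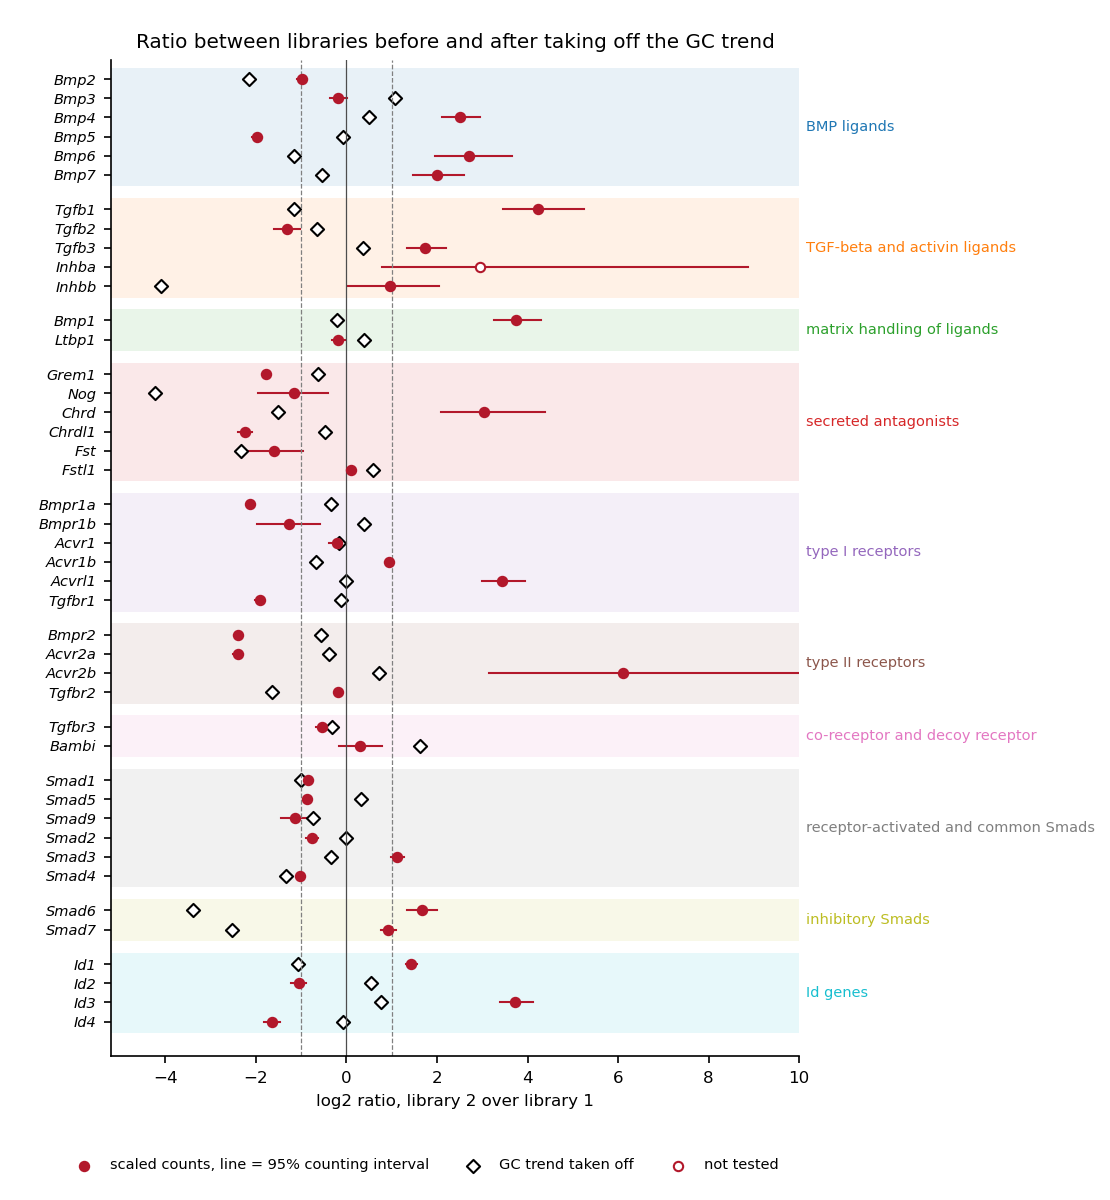
The log2 ratio of library 2 over library 1 for each gene, as filled points with 95% exact counting intervals on scaled counts and as open diamonds with the GC trend taken off; dashed lines mark 2-fold and the open circle marks Inhba, which was not compared. The points of Acvr2b, Tgfb1, Bmp1, Id3, Acvrl1 and Chrd lie above 3 and move to between -1.51 and 0.76 as diamonds, and the interval of Acvr2b runs off the axis because its count in library 1 was 0, where the place of the point depends on the prior count.

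Transcript use was examined in the 23 pathway genes with several annotated transcripts and a mean of at least 5 TPM. The leading transcript, the one with the highest mean share of its gene's TPM, was the same in both libraries for 21 of the 23, and its share had a median of 89.0% in library 2 and 99.5% in library 1. It held over 80% in both libraries in 12 genes, among them Id1-201 with 92.1% in library 2 and 98.8% in library 1. Shares differed by more than 20 points in 8 genes. On TPM, Bmp4 was led by Bmp4-202 in library 2, with 50.3%, and by Bmp4-201 in library 1, with 69.1%, and Bmp4-202 was at 0% in library 1. On expected counts Bmp4-201 led in both, with 52.3% in library 2 and 92.7% in library 1. The library 1 shares of Bmp4 rest on a gene total of 55 expected counts. Tgfbr2-202, the second coding transcript of the TGF-beta type II receptor, held 44.2% in library 2 and 0% in library 1. Of the retained-intron transcripts, Ltbp1-206 held 17.1% of its gene in library 2 and 81.6% in library 1. That of Id3 held 12.7% in library 2 and 47.5% in library 1. That of Tgfb1 held 5.57% in library 2 and 0% in library 1, and those of Smad5 and Bmpr2 held under 2% in both. For Id3 the share in library 1 rests on a gene total of 67 expected counts. For Tgfb1 that total was 12, too few to give a direction, and in library 2 Tgfb1-201 held 99.1% of the gene's expected counts.

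Other genes of the pathway were listed by role, and 76 of the 77 listed were found in the files. Of these, 54 could be compared, and 22 were higher in library 2 (40.7%), 12 lower (22.2%) and 20 neither, beside the background of 37% and 28.2% given above. With the GC trend off, 6 of the 54 were higher and 12 lower, beside a background of 13.3% higher and 11.7% lower over all genes. Genes named here are among the 3 most abundant of their role. Among further ligands these were Gdf10, with 5.68 TPM in library 2 and 1.88 TPM in library 1, and the near-identical pair Bmp8a and Bmp8b, whose reads may have been shared between them. The log2 ratio of Gdf10 was 0.42 on scaled counts and -0.45 with the GC trend off. Among co-receptors Rgmb and Neo1 had log2 ratios of 0.32 and -0.18, and endoglin (Eng), a TGF-beta co-receptor of endothelium, had 15.9 TPM in library 2 and 0.69 TPM in library 1. The log2 ratio of Eng was 5.23 on scaled counts and 1.71 with the GC trend off. Of further antagonists, Twsg1 had 40.3 TPM in library 2 and 45.2 TPM in library 1, and Nbl1 had 52.5 TPM in library 2 and 0.91 TPM in library 1. Their log2 ratios were -1.33 and 4.66 on scaled counts, and -0.32 and -0.50 with the GC trend off. Ltbp4, which binds latent TGF-beta, had 91.9 TPM in library 2 and 0.74 TPM in library 1, from 4573 and 9 counts, so it passed the count minimum through library 2, and its log2 ratio of 8.48 (95% counting interval 7.63 to 9.69) was 3.16 with the GC trend off, beside Itgav at -1.66 and Thbs1 at -0.19 on scaled counts. Among intracellular regulators Fkbp1a, Tgif1 and Ppm1a had log2 ratios of 0.07, -0.43 and -0.18. Of the further targets, Cdkn1a had 188 TPM in library 2 and 40.3 TPM in library 1, Tgfbi had 59.8 and 6.66 TPM, and Cdkn2b had 48.2 and 13.6 TPM, library 2 first. On scaled counts the log2 ratios were 1.03 for Cdkn1a, 2.00 for Tgfbi and 0.67 for Cdkn2b. With the GC trend off they were -1.13, 0.64 and -2.22 in that order.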

How the data were processed

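Polyadenylated RNA of 1 mouse sigmoid colon was measured in 2 technical libraries. Per the file headers, the authors deposited expected counts (model-based estimated counts), TPM with a posterior mean of the TPM, and each transcript's share of its gene's TPM in percent. Assembly mm10 with GENCODE M4 is named in the deposited text files. For aligner, quantifier and use of strand the entry is: not given in the sources used here. Symbols matched 42462 of 43346 Ensembl genes. Positions and sequences came from GENCODE M21 on GRCm38, the same assembly with a later annotation, in which 88.2% of transcripts kept their length. GC content per gene is the TPM-weighted mean of its transcripts, over transcripts of unchanged length where it had any.

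Ratios are library 2 over library 1 on expected counts over TMM-scaled library sizes (edgeR 4.0.16, R 4.3.3; that of library 2 was 1.35 times that of library 1) with a prior count of 0.5, for genes with a mean of at least 10. Intervals are exact (Clopper-Pearson, 95%, counts rounded to whole numbers). The floor for 0 counts was 3 counts per library. No p-value is given, since 1 library against 1 leaves no residual degrees of freedom. PCR reads are not independent molecules, so intervals cover counting error only. The calculation was tested on simulated data. Lowess trends used a fraction of 0.2 (Python 3.11.15; statsmodels 0.14.6; scipy 1.17.1). The 43 genes and all lists were chosen with earlier results of these data known. Named genes are all 43, the 3 highest mean TPM per role among other pathway genes, and the leading transcripts of members with at least 5 TPM; others named were chosen after their values were seen. A gene that this rule takes is not reported here. Marker lists are given as sums and counts, apart from the few markers named. DESeq2 1.42.0 gave size factors as an alternative.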

Additional observations from a re-analysis of the deposited data

How the results depend on the processing

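The alternatives were planned except for the correlation without genes of changed transcript length. DESeq2 size factors, a prior count of 2, a mean count of at least 50 and an exact binomial test with Benjamini-Hochberg adjustment reversed no gene. The number higher in library 2, 13, became 2 with the GC trend off, and the number lower, 15, became 3 on the ratio of deposited TPM. The median ratio of all genes, 0.12, was 0.24 with no filter on low counts, -0.22 with a length trend off and -0.02 on TPM rescaled to nuclear protein-coding genes. With the GC trend off, 14 log2 ratios that were past 2-fold before or after changed sign: Bmp3 to 1.07, Bmp6 to -1.16, Bmp7 to -0.55, Tgfb1 to -1.16, Inhbb to -4.09, Bmp1 to -0.20, Chrd to -1.51, Bmpr1b to 0.39, Acvrl1 to -0.0072, Smad3 to -0.34, Smad6 to -3.38, Smad7 to -2.53, Id1 to -1.07 and Id2 to 0.55. Ltbp1, Acvr1b and Smad5, under 2-fold both times, changed sign to 0.38, -0.67 and 0.31. On the ratio of deposited TPM, Nog was at 0.00, Smad9 at 0.042, Smad4 at 0.53 and Id2 at 0.11, and with a length trend off Id1 was at -0.075. Rescaled to nuclear protein-coding genes, mean summed TPM was 149 for BMP ligands, 30.3 for matrix handling, 202 for antagonists, 253 for type I receptors, 162 for type II receptors, 17.5 for the accessory receptors and 294 for receptor-activated and common Smads. On posterior mean TPM the type II receptors summed to 68.4. With Fst and Fstl1 among the antagonists the log2 quotient of ligands over antagonists, 0.22, was -0.57, and on expected counts -0.07. The cause was not tested. Leaving out a library leaves the other library's value, so genes at 1 TPM ranged over 31 to 39, and the quotient over -0.26 to 0.70. No paired analysis was possible because both libraries form 1 group. The counting SE was largest for Acvr2b, Inhba, Chrd, Inhbb, Tgfb1, Bmp6, Nog, Bmpr1b and Fst, between 0.32 and 2.05 on the log2 scale.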

Other observations

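Some pathway genes outside the 43 were not seen at this depth. Bmp10, Gdf2, Lefty2, Inhbe, Tdgf1, Sost, Cer1 and Msx2 had 0 counts in both libraries, a result that a level of 3 counts could still give (0.145 CPM for library 2, 0.116 CPM for library 1). These 8 genes, and the next ones, were chosen after their values were seen. Furin, a protease that processes TGF-beta and BMP precursors, had 33.1 TPM in library 2 and 0.49 TPM in library 1, with a log2 ratio of 4.64 on scaled counts and 0.06 with the GC trend off. Rgma, a BMP co-receptor, had 8.79 TPM in library 2 and 0.01 TPM in library 1, from 415 and 1 counts, with a log2 ratio of 7.68 on scaled counts (95% counting interval 5.78 to 13.6) and 2.94 with the GC trend off. Tab1, which binds the kinase Map3k7 in a branch without Smads, had 15.9 TPM in library 2 and 0.14 TPM in library 1, from 628 and 9 counts, with a log2 ratio of 5.62 (4.76 to 6.83) that was 1.60 with the GC trend off. Both Rgma and Tab1 passed the count minimum through library 2. With 1 count in library 1 Rgma had to differ, whereas for Tab1, with 9, the minimum did not force a 2-fold difference.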
